A study of Homo sapiens with 4 samples.

Results

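The nuclear oxidative phosphorylation genes, which encode subunits of the respiratory chain and of the ATP synthase, were taken by symbol: all genes whose current symbol begins with NDUFA, NDUFB, NDUFC, NDUFS, NDUFV, UQCR, ATP5F1, ATP5M or ATP5P, SDHA to SDHD, and the COX4 to COX8 subunits. The annotation holds 85 such protein-coding genes, and 84 of the 20503 genes with a symbol on the array were members. UQCRHL had no probe. Assembly factors (NDUFAF genes), 186 pseudogenes and 8 hyphenated loci such as antisense and read-through transcripts were not members. Complex I had 37 members, complex II had 4, complex III had 8, complex IV had 17 and complex V had 18. NDUFA4, a former complex I gene that now carries the symbol COXFA4, is therefore no member and is given with the partner genes.

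Oxidative phosphorylation is carried out in the inner mitochondrial membrane by complexes I to IV, which pass electrons from NADH and succinate to oxygen and build a proton gradient, and by complex V, the ATP synthase, which uses that gradient to make ATP. A few subunits at the catalytic and proton-pumping core are encoded by the mitochondrial genome, and the others, described here, are encoded in the nucleus, translated in the cytosol and imported. In normal mammary epithelium as in most cells, these genes are highly expressed and their products are joined in fixed proportions, and a few have isoforms that are largely restricted to muscle, lung or testis.

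MCF-10A, an established line of non-tumour human mammary epithelial cells, had been given 10 µM of a peptide whose helix is held by a chemical staple, and total RNA was taken 24 h or 48 h later. The study made such peptides against the binding of BIG3 to PHB2 and used MCF-10A as cells that lack the oestrogen receptor alpha and BIG3. In the labels, 1 peptide is called stapled-peptide and the other non-specific stapled-peptide, with the treatment of the latter given as control, and no untreated sample was used here. Each peptide and time had 1 single-colour Agilent array, all on 1 slide and in 1 scan, so no test was possible and a difference past 2-fold is a description. Differences are given on the log2 scale, either as the non-specific array minus the stapled-peptide array of the same time, or as 48 h minus 24 h. Where RNA of a gene is lower in such bulk samples, fewer cells that express it and less RNA per cell cannot be told apart.

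The array labelled non-specific stapled-peptide 48 h stood apart from the others and went against its label. All 12 basal mammary epithelial markers listed, among them KRT5, ITGB4 and SFN, were lower by 2-fold or more on it than on the stapled-peptide 48 h array, with a mean log2 signal of 5.11 against 12.23 to 12.26 on the other arrays. KRT6A and TRIM29 were not well above background on it. Of 10 embryonic or neural-like genes, 8 were higher by 2-fold or more, with a mean of 10.16 against 3.48 to 3.56. PAX2 (-0.59) and L1CAM (-0.58), both dim, were lower. Of the 7 mesenchymal genes that could be compared 4 were lower by 2-fold or more, the list of 10 having a mean of 6.29 against 8.12 to 8.26. Among all genes, 21.2% were higher and 19.8% lower by 2-fold or more. The marker lists were chosen with earlier results of these data known, so their counts are a description and not a test. The other 3 arrays carried the basal markers that MCF-10A is known for. With 1 array per condition, the peptide at 48 h and any other property of that array cannot be told apart, and the part that a different cell composition has in the values below was not tested. Both comparisons that use this array share it, so they are not independent of each other.

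Most members stayed within a narrow band on that array although a large share of the genome did not. Between the peptides at 48 h, 4 of 83 members (4.82%) were higher by 2-fold or more on the non-specific array, against 21.2% of 17112 genes. ATP5MJ, NDUFV3, COX5A and COX8C were these members. Another 3 (3.61%), COX6B2, NDUFB5 and COX7B2, were lower by 2-fold or more, against 19.8% of genes. The median difference of the members was 0.29, beside 0.03 for all genes, and their standard deviation across genes was 0.62, beside 1.76. Members were mostly bright, so genes with a mean log2 signal of at least 11 were also counted, a limit chosen after the values were seen. Of 77 members this bright, 3 were higher by 2-fold or more (3.90%) and 2 lower (2.60%), against 13.7% and 21.8% of 2421 genes.

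The direction of the smaller differences depended on scaling. By quantile normalization 59 members had a positive and 24 a negative difference at 48 h, whereas scaling each array to its 75th percentile gave 45 and 37. By quantile normalization 71.1% of members were thus positive, beside 51.1% of all genes. Of the 2421 genes with a mean log2 signal of at least 11, 48.5% were positive. That scaling put the median of all genes at -0.06 and the median of the members at 0.06, so the members' median lay 0.26 above that of all genes under quantile normalization and 0.13 above it under the percentile scaling. In size the differences had a median of 0.39 for the members and 0.81 for all genes.

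Without that array, the members hardly differed, as held for bright genes in general. Between the peptides at 24 h, 0 of 81 members were higher and 0 were lower by 2-fold or more, against 0.838% and 1.04% of 16228 genes. From 24 h to 48 h with stapled-peptide, the counts were again 0 and 0 of 81, against 0.923% and 1.13% of genes. In these comparisons the median size of a member's difference was 0.04. Of the 2421 genes with a mean log2 signal of at least 11, 0 were higher and 0 lower by 2-fold in each. Their median sizes were 0.052 at 24 h and 0.049 over time with stapled-peptide. The largest at 24 h was -0.35 for ATP5MGL, a gene derived from a copy of ATP5MG, and the largest from 24 h to 48 h with stapled-peptide was 0.87 for COX7B2, which was not well above background on all arrays. From 24 h to 48 h with non-specific stapled-peptide, 4 of 83 members were higher (ATP5MJ, COX8C, NDUFV3 and COX5A) and COX6B2 alone was lower by 2-fold or more, against 21.3% and 20.1% of genes.

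**Figure D1:**
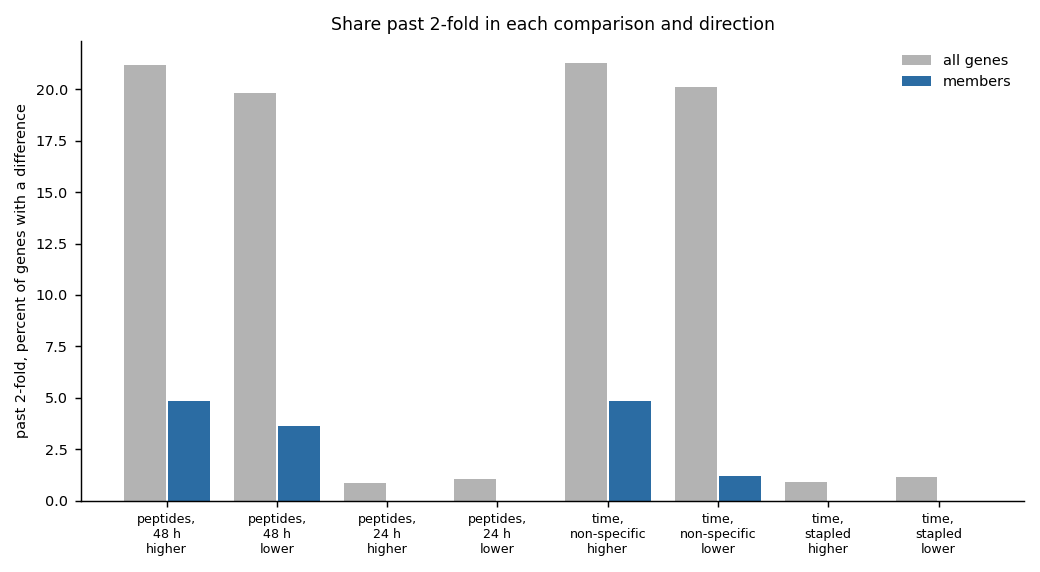
Percent of genes past 2-fold in each comparison and direction, for all genes with a difference (grey bars) and for the members (blue bars). At 48 h 4.82% of members were higher and 3.61% lower, below the grey bars of 21.2% and 19.8%, and no blue bar appears at 24 h or over time with stapled-peptide, where the count of members was 0.

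On the array scale, 80 of 84 members were well above background on all 4 arrays. COX7B2 was so on 2 arrays, COX8C and COX6A2 on 1, and COX7A1 on none. For the 80 members, the range over the 2 stapled-peptide arrays and the non-specific 24 h array had a median of 0.07 and was at most 0.35. The non-specific 48 h array lay above all of these 3 for 54 members (67.5%, against 45.5% of 14042 genes), below all of them for 23 (28.8%, against 46.6%) and within their range for 3, NDUFA9, NDUFB7 and ATP5F1A. For 72 members it lay outside by more than that range itself, a count that was not made over all genes. COX7C, NDUFS5, NDUFS6 and UQCRC2 were spotted 10 times on each array, and their replicate spots had a coefficient of variation of 1.73% to 5.99%, which covers the error between spots and not that between cultures.

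**Figure D2:**
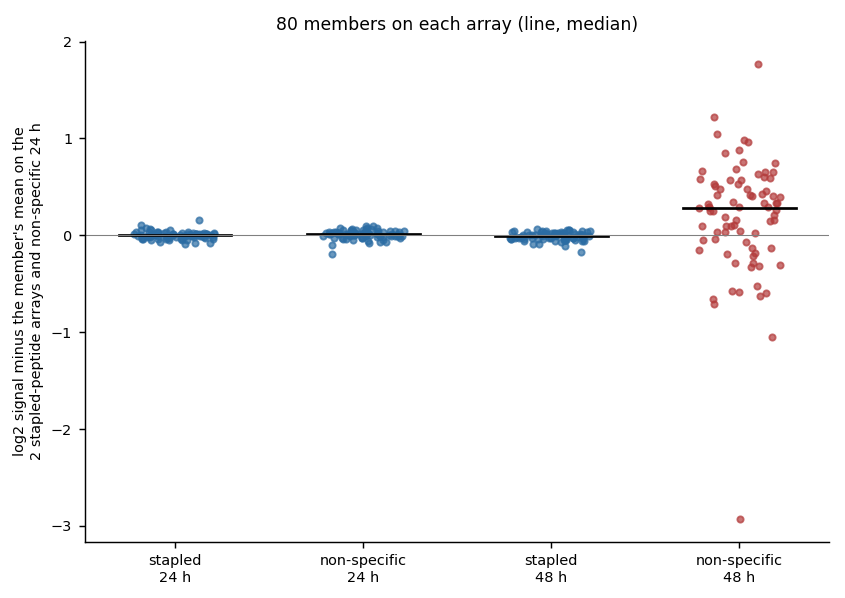
Log2 signal of the 80 members well above background on all 4 arrays, minus each member's own mean over the 2 stapled-peptide arrays and the non-specific 24 h array. Points are members and lines are medians. The members sit close to 0 on the first 3 arrays and spread widely on the non-specific 48 h array, with ATP5MJ at the top and COX6B2 at the bottom.

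Signals in the following are normalized log2 values in the order stapled-peptide 24 h, non-specific stapled-peptide 24 h, stapled-peptide 48 h and non-specific stapled-peptide 48 h. They are compared for 1 gene across arrays and not between genes, since probes differ in how strongly they bind.

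Complex I takes electrons from NADH and hands them to ubiquinone. Its 37 members had a median difference of 0.31 at 48 h, from -1.10 for NDUFB5 to 1.26 for NDUFV3. Of these, 26 were positive and 11 negative (70.3% positive, beside 51.1% of all genes). At 24 h their differences ran from -0.16 to 0.11. NDUFV1 holds the flavin that accepts electrons from NADH, and its signals were 13.27, 13.27, 13.29 and 13.93, a difference of 0.64 at 48 h. NDUFS1, the large iron-sulphur subunit next to it, gave 11.94, 12.04, 12.06 and 12.54. NDUFV2, which carries an iron-sulphur cluster in the same module, gave 13.12, 13.07, 13.14 and 12.40 and was the second lowest member of the complex at -0.74. Thus 2 of the 3 nucleotide-binding core genes were higher and 1 was lower on the non-specific 48 h array, none past 2-fold, and each of the 3 ranged over at most 0.12 on the other arrays.

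In the quinone-binding module, NDUFS7, which carries the last cluster before ubiquinone, had signals of 11.75, 11.78, 11.67 and 12.39. For NDUFS8, another iron-sulphur subunit, they were 12.70, 12.66, 12.77 and 13.39, and for NDUFS3, a subunit at the base of the matrix arm, 11.90, 11.79, 11.90 and 12.34. These were highest on the non-specific 48 h array, by 0.72, 0.62 and 0.43.

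NDUFV3, a small accessory subunit of the NADH-binding module, was the member of complex I furthest above the other arrays. Its signals were 11.47, 11.58, 11.47 and 12.73, which is 2.40-fold higher with non-specific stapled-peptide at 48 h. NDUFB8, an accessory subunit of the membrane arm, was just inside 2-fold at 0.99, with signals of 13.46, 13.49, 13.47 and 14.46, and its other probe gave 1.23. NDUFB5, also in the membrane arm, was the only member of complex I lower by 2-fold or more. It gave 12.00, 11.84, 11.99 and 10.89, 2.14-fold lower, and both of its probes were low, with differences of -1.10 and -1.03. With no normalization its difference was -0.90, inside 2-fold, and with the normexp background correction -0.99.

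The other accessory subunits of complex I formed a continuous series. NDUFA7 (0.94), NDUFA1 (0.93), NDUFA6 (0.71), NDUFB10 (0.62) and NDUFB11 (0.55) came next after NDUFB8 among accessory genes. NDUFB6, NDUFA8, NDUFAB1 (the mitochondrial acyl carrier protein), NDUFA12, NDUFA10, NDUFA11, NDUFC2, NDUFB2, NDUFB1 and NDUFA5 lay between 0.21 and 0.49. The other probe of NDUFA10 gave -0.05, so its direction depended on the probe, and that of NDUFC2 gave 0.65. NDUFS6, NDUFB3, NDUFB7, NDUFA9, NDUFB9 and NDUFB4 lay between -0.14 and 0.11. Below these were NDUFC1, NDUFS5, NDUFA13 and NDUFA3, from -0.31 to -0.22, then NDUFS4 at -0.49, an accessory subunit known for its loss in Leigh syndrome, and NDUFA2 at -0.53. Members of 1 assembled complex thus differed on this array by amounts that ran over more than 2 log2 units.

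**Figure D3:**
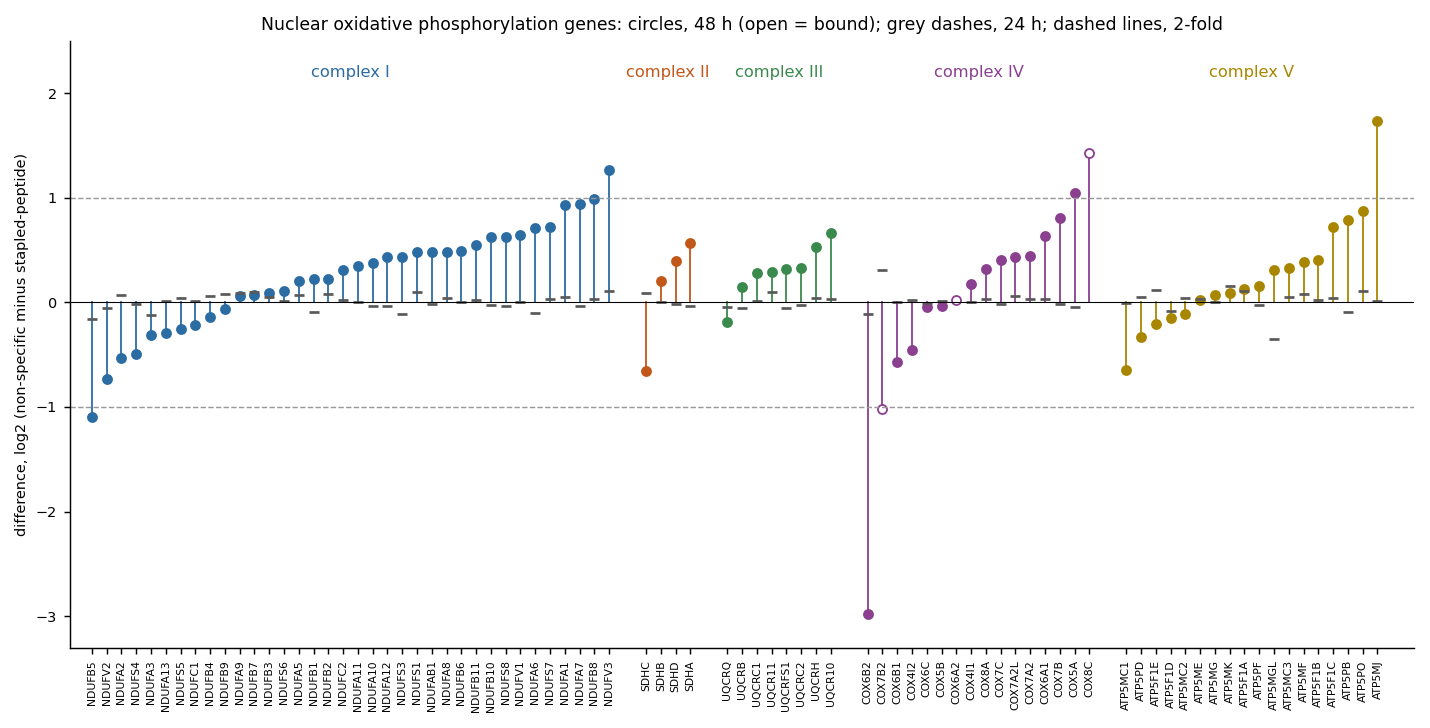
Difference in log2 signal between non-specific stapled-peptide and stapled-peptide for 82 of the 83 members with a value, ordered within complexes I to V. Circles are 48 h, grey dashes are 24 h and dashed lines mark 2-fold. Open circles are genes well above background on 1 of the 2 arrays, where the value is a bound or, for COX7B2, the plain difference. Most circles lie within the lines, with COX6B2 at -2.98 and ATP5MJ at 1.74 furthest out, while the dashes stay near 0.

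Complex II, succinate dehydrogenase, links the tricarboxylic acid cycle to the chain and has no mitochondrially encoded subunit. SDHA, the flavoprotein that oxidises succinate, had signals of 12.24, 12.20, 12.24 and 12.80. SDHB, the iron-sulphur subunit, gave 11.22, 11.22, 11.14 and 11.35. SDHD, a membrane anchor, gave 10.31, 10.30, 10.33 and 10.72, and these 3 genes were highest on the non-specific 48 h array, by 0.56, 0.21 and 0.39. SDHC, the anchor that pairs with SDHD, was lower there, with 12.34, 12.43, 12.48 and 11.83 and a difference of -0.66. The 3 probes of SDHC did not share a sign and ran from -0.66 to 0.11, whereas the 4 probes of SDHA ran from 0.22 to 0.56.

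Complex III passes electrons from ubiquinol to cytochrome c. Its 8 members ran from -0.19 to 0.66 at 48 h with a median of 0.30 and a standard deviation across genes of 0.25, the smallest of the complexes, and none was past 2-fold. The core proteins UQCRC1 and UQCRC2 had signals of 12.51, 12.52, 12.52 and 12.80 and of 11.74, 11.72, 11.73 and 12.06. UQCRFS1, the Rieske iron-sulphur protein, gave 13.03, 12.98, 13.04 and 13.35. These 3 differed by 0.28, 0.33 and 0.32 at 48 h, each more than its range over the other arrays. Among the small subunits, UQCRH, the hinge protein that docks cytochrome c1, gave 14.74, 14.78, 14.82 and 15.35 and UQCR10 13.92, 13.95, 13.81 and 14.47. The 3 probes of UQCR10 gave 0.49 to 1.66, so its place relative to 2-fold depended on the probe. UQCRB, whose product helps to form a quinone site, gave 13.58, 13.53, 13.61 and 13.76, and UQCR11 differed by 0.29. UQCRQ alone was lower on the non-specific 48 h array, with 16.10, 16.05, 16.03 and 15.85.

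Complex IV, cytochrome c oxidase, showed the widest spread by standard deviation, with COX6B2 and COX7B2 at the low end and COX8C at the high end. Its quartiles at 48 h, -0.15 and 0.49, lay no further apart than those of complex I, -0.14 and 0.55. Of its 17 members, 16 had a difference at 48 h, with a median of 0.25, a standard deviation of 1.01 and a sign that changed to -0.01 for the median under the percentile scaling. COX6B2, an isoform known from testis, stood furthest apart of all members. Its signals were 12.40, 12.29, 12.43 and 9.45, so it was bright and level on the first 3 arrays and 7.89-fold lower on the non-specific 48 h array. Its second probe, by contrast, was well above background on that array alone, with signals of 3.68, 2.98, 3.70 and 4.64 and a difference of at least 0.75. The probes of COX6B2 therefore disagreed in direction, their mean difference was -1.11, and the probe sequences were not used here. COX6B1, the general isoform of this subunit, which faces the intermembrane space, gave 13.83, 13.84, 13.81 and 13.23.

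COX5A, a subunit on the matrix side of the oxidase, was the bright member furthest above the other arrays in complex IV. It gave 13.29, 13.25, 13.28 and 14.32, 2.06-fold higher at 48 h, and its 2 probes gave 0.95 and 1.04. With percentile scaling its difference was 0.75, inside 2-fold. COX5B, a zinc-binding subunit on the same side, gave 13.52, 13.54, 13.52 and 13.49, and COX4I1, the main isoform of the largest nuclear-encoded subunit, gave 13.76, 13.77, 13.73 and 13.90. Both stayed within 0.20 of the stapled-peptide 48 h array, unlike COX5A. COX7A2L, which takes part in joining complexes III and IV into supercomplexes, gave 12.21, 12.27, 12.23 and 12.66. Of the small membrane-spanning subunits, COX7B differed by 0.80, COX6A1 by 0.63, and COX7A2, COX7C and COX8A by 0.32 to 0.44, while COX6C differed by -0.05.

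The tissue-restricted isoforms of complex IV other than COX6B2 were dim. COX4I2, known from lung, was well above background on all 4 arrays at a low 5.66, 5.68, 5.41 and 4.96, lowest on the non-specific 48 h array. COX7B2, known from testis, gave 3.99, 4.30, 4.85 and 3.84 and was 2.03-fold lower at 48 h. Its signal on the non-specific 48 h array was not well above background. COX8C, also known from testis, was well above background on the non-specific 48 h array alone, with 1.69, 2.90, 3.58 and 5.32, at least 2.69-fold higher. With the normexp correction the differences of COX8C and COX7B2 were 0.56 and -0.29, inside 2-fold. COX6A2, the muscle isoform of COX6A1, was also above background on that array alone, with 3.93, 3.78, 3.38 and 3.91, and its bound was only 0.02. COX7A1, a heart and muscle isoform, was not well above background on any array.

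**Figure D4:**
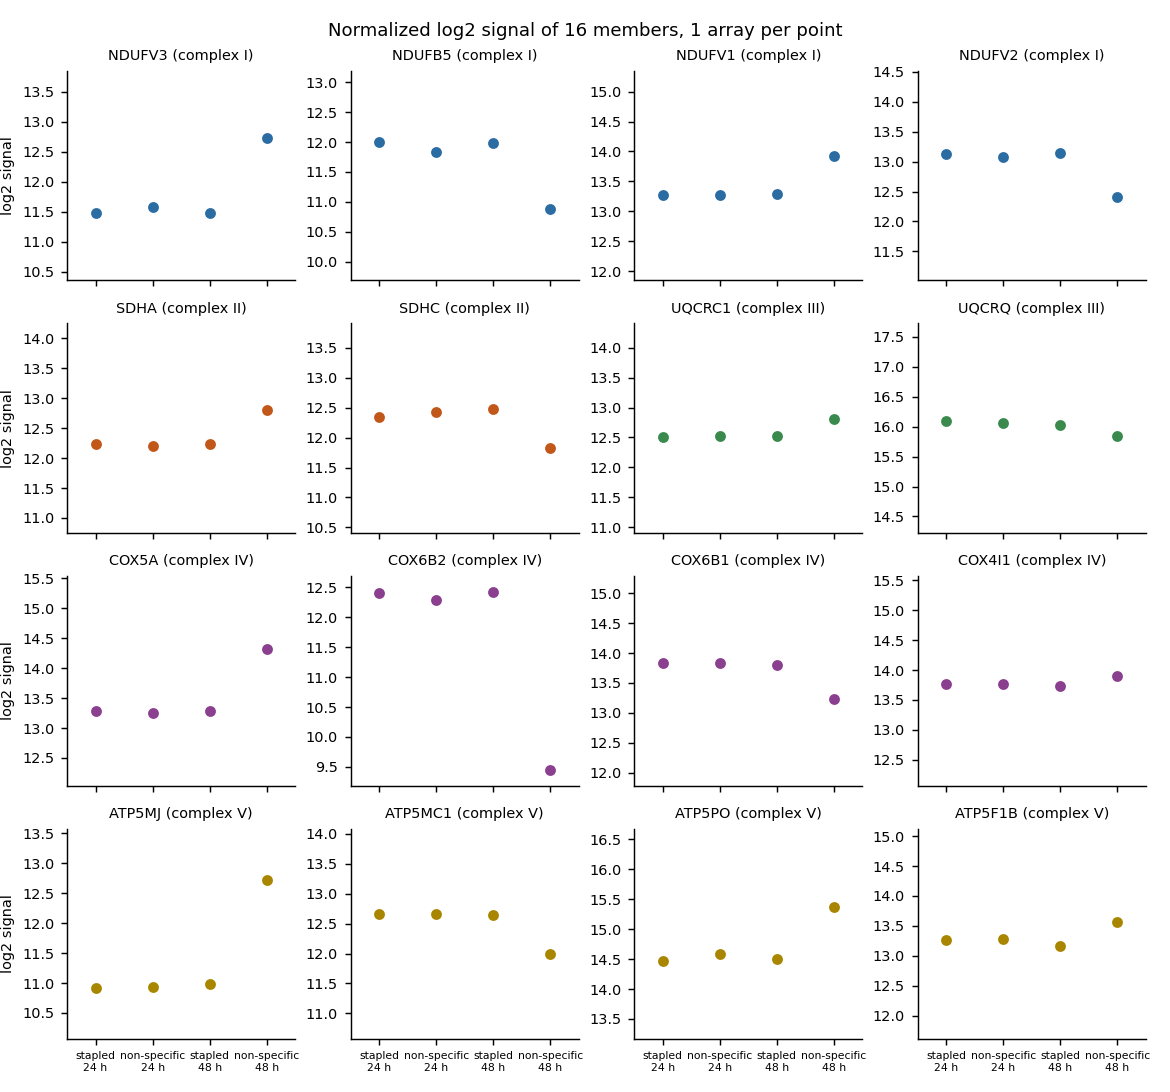
Normalized log2 signal of 16 members from complexes I to V, with 1 point per array in the order stapled-peptide 24 h, non-specific 24 h, stapled-peptide 48 h and non-specific 48 h. Each vertical axis is set to its gene. The first 3 points lie close together in every panel, and the last lies above them in NDUFV3, COX5A and ATP5MJ and below them in NDUFB5, COX6B2 and ATP5MC1.

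Complex V makes ATP in its F1 head as the c-ring turns in the membrane, and a peripheral stalk holds the head still. Its 18 members had a median difference of 0.14 at 48 h, which became -0.14 under the percentile scaling. By quantile normalization 13 of them were positive (72.2%, beside 51.1% of all genes). In the head, the alpha subunit ATP5F1A had signals of 13.98, 14.09, 13.89 and 14.02, within the range of the other arrays. The catalytic beta subunit ATP5F1B gave 13.26, 13.28, 13.17 and 13.57. The gamma subunit ATP5F1C, the shaft inside the head, gave 11.02, 11.06, 10.96 and 11.68 and had the largest difference of the head genes at 0.72. At the foot of that shaft, ATP5F1D gave 12.13, 12.05, 12.04 and 11.89 and ATP5F1E gave 15.56, 15.68, 15.69 and 15.49, both slightly lower on the non-specific 48 h array, though ATP5F1D was at 0.02 with no normalization. Differences within the head thus ran from -0.21 to 0.72.

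ATP5MC1, ATP5MC2 and ATP5MC3 encode the same mature c subunit behind different import sequences, yet their differences at 48 h did not share a sign. ATP5MC1 gave 12.67, 12.66, 12.64 and 11.99, a difference of -0.64. ATP5MC2 gave 15.41, 15.45, 15.40 and 15.29, and ATP5MC3 gave 14.95, 14.99, 14.88 and 15.20, a difference of 0.33. In the peripheral stalk, ATP5PO, the protein that ties the stalk to the head, gave 14.47, 14.58, 14.50 and 15.37 and ATP5PB, the long b subunit, differed by 0.79. ATP5PD, the d subunit, was lower with 14.52, 14.57, 14.58 and 14.25, and ATP5PF differed by 0.16.

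ATP5MJ, a small proteolipid bound to the membrane part of the synthase, had the largest positive difference of all members. Its signals were 10.92, 10.94, 10.98 and 12.72, 3.33-fold higher with non-specific stapled-peptide at 48 h, against a range of 0.06 over the other arrays. It had 1 probe. Its neighbours in the membrane part were closer to level: ATP5ME, ATP5MG and ATP5MK differed by 0.02 to 0.09, and ATP5MF by 0.38. The other probe of ATP5ME gave 0.26. ATP5MGL differed by 0.31 at 48 h and by -0.35 at 24 h, so its 48 h value was no larger than its difference between arrays at the earlier time.

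Chromosome and promoter sequence did not enter the choice of the members. By chromosome, all 7 members on chromosome 11 were higher on the non-specific 48 h array, with a median of 0.39 beside -0.15 for the 1030 genes of that chromosome, although COX8A and ATP5MG among them changed sign under the percentile scaling. All 3 on chromosome X (NDUFA1, NDUFB11 and COX7B) were higher too, with a median of 0.80, beside 0.40 for 627 genes. Those on chromosome 21 (NDUFV3, ATP5PO and ATP5PF) had a median of 0.87, beside 0.31 for 196 genes, and ATP5PF changed sign under that scaling. The 11 members on chromosome 19 were mixed, 6 positive and 5 negative, with a median of 0.07. Chromosomes 3, 4 and 8 each had 1 positive and 2 negative members, with medians of -0.14, -0.22 and -0.05 beside 0.17, -0.09 and -0.23 for all genes of each. By quantile normalization, all members were also positive on chromosomes 7, 10, 14, 16 and 22, and they were mixed on 1, 2, 5 and 12. Under the percentile scaling NDUFB2, ATP5MK, NDUFB1 and COX4I1, on chromosomes 7, 10, 14 and 16, changed sign. Over all chromosomes 71.1% of members were positive, beside 51.1% of all genes. Chromosomes with fewer than 3 members are not listed. These chromosomes were named after their values were seen, and the counts are a description.

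Promoters of respiratory genes are known for sites of NRF1, of the ETS factor GABP and of YY1. RefSeq windows from 250 bases before to 50 after a start site (GRCh38.p14) were found for 69 members, the first listed window of each gene being used. The NRF1 half-site core GCGCATGC was present on either strand in 13 of the 69 (18.8%), beside 3.27% of 27305 windows of all genes and 4.26% of those of protein-coding genes. The ETS core CCGGAAGT was present in 10 (14.5%, beside 4.44% and 6.19%), and the YY1 core AAGATGGC in 11 (15.9%, beside 3.03% and 3.91%). In all, 28 members held at least 1 core and 6 held 2 or more kinds, counts that were not made for other genes.

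The windows below show 1 member of complexes I, II, IV and V with 2 kinds of core, and the members with the highest and the lowest difference at 48 h, which held none. Capitals mark the cores on either strand, and in SDHD the core lies on both strands in overlapping letters. NDUFS7 lies at chr19:1383657-1383956 (plus strand), SDHD at chr11:112086623-112086922 (plus), COX5B at chr2:97645812-97646111 (plus), ATP5PF at chr21:25735005-25735304 (minus), ATP5MJ at chr14:103921480-103921779 (minus) and COX6B2 at chr19:55354670-55354969 (minus). Each is written from 5′ to 3′ on the strand of its gene.
NDUFS7: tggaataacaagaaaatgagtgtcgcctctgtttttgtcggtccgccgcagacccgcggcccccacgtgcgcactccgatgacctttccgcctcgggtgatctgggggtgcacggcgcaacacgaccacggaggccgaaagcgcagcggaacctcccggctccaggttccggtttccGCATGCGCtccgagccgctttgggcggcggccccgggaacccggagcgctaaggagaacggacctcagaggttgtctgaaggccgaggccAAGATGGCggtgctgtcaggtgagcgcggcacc
SDHD: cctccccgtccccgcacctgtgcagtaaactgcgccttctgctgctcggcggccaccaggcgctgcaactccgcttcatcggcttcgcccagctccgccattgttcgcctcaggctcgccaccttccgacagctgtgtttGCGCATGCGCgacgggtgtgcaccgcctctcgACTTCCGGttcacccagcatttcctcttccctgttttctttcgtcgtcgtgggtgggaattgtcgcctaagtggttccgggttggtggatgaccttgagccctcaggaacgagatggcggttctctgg
COX5B: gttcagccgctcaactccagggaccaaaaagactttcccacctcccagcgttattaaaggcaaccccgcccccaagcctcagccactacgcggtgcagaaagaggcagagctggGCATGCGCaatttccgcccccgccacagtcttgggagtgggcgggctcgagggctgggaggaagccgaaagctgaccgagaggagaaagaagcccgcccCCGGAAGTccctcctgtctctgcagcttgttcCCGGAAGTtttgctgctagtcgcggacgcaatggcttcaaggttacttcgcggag
ATP5PF: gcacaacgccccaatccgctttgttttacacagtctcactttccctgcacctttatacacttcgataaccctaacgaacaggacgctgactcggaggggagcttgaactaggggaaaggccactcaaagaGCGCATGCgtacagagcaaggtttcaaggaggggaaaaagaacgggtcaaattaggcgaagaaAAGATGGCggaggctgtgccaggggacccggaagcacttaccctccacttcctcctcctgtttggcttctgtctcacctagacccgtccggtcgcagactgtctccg
ATP5MJ: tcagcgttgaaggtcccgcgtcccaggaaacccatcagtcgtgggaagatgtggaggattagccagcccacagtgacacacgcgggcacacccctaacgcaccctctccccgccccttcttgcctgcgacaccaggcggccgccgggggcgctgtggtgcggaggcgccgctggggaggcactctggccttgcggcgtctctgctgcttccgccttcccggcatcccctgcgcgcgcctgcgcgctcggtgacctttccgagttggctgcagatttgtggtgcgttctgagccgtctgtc
COX6B2: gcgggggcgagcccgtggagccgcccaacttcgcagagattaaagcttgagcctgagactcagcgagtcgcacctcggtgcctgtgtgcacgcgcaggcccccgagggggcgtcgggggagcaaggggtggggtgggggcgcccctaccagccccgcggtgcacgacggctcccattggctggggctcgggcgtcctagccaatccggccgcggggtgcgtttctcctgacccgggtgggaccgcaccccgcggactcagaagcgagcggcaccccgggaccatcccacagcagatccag

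Within these windows, positions are given from the start site. In NDUFS7 the NRF1 core began 73 bases before it and the YY1 core at base 18 after it. In COX5B an NRF1 core began 136 bases before the start and ETS cores 37 and 5 bases before it. In SDHD the overlapping NRF1 cores began 110 and 108 bases before the start and the ETS core 78 bases before it, and in ATP5PF the NRF1 core began 120 and the YY1 core 57 bases before it. Differences at 48 h are set side by side for members with and without each core, as a description. The median was 0.21 with and 0.33 without the NRF1 core, 0.19 and 0.34 for the ETS core, and 0.28 and 0.33 for the YY1 core. Among the factors themselves, NRF1 had signals of 4.93, 4.73, 5.29 and 5.95, GABPA, the DNA-binding part of GABP, 8.11, 8.23, 8.20 and 9.24, and both were highest on the non-specific 48 h array. YY1 differed by 0.26.

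Other genes that serve the same machinery spread more widely than the members on that array, with standard deviations of 0.74 to 1.13 across the genes of a list, beside 0.62. The gene lists were drawn up by function, with earlier results of these data known. Each is read against the 21.2% and 19.8% of all genes past 2-fold. Of 16 complex I assembly factors, 5 were higher by 2-fold or more and 0 lower, with a median difference of 0.65. NDUFAF4 (2.51) and FOXRED1 (1.44) were the highest, and NDUFAF1 (-0.82) and NDUFAF2 (-0.05) the lowest. Of 31 measured assembly factors of complexes II to V, 4 were higher and 3 lower, with a median of 0.49. SDHAF3 (2.44), which helps to assemble succinate dehydrogenase, and COX19 (1.42) were at one end, and UQCC1 (-1.41), a complex III assembly factor, and COX20 (-1.37) at the other.

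Of 18 regulators of mitochondrial biogenesis, 5 were higher and 1 lower, with a median of 0.74. The coactivators PPARGC1B (1.99) and PPARGC1A (at least 1.53) were the highest, and ESRRG (-1.08, a bound) and TFB2M (-0.44) the lowest. The 19 genes of the tricarboxylic acid cycle and pyruvate entry had 4 higher and 1 lower and a median of 0.30, with IDH3A (2.01) and DLD (1.56) highest and PC (-1.11), pyruvate carboxylase, and SUCLG2 (-0.998) lowest. Of 20 electron carriers and partners outside the symbol rule, 5 were higher and 1 was lower, with a median of 0.15. CYCS, cytochrome c, had signals of 10.41, 10.49, 10.25 and 12.03, and COQ10A differed by 1.61. COXFA4L3 gave 8.80, 8.96, 8.69 and 5.37, the lowest of this list, followed by VDAC1 (-0.89), while COXFA4 differed by -0.16.

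**Figure D5:**
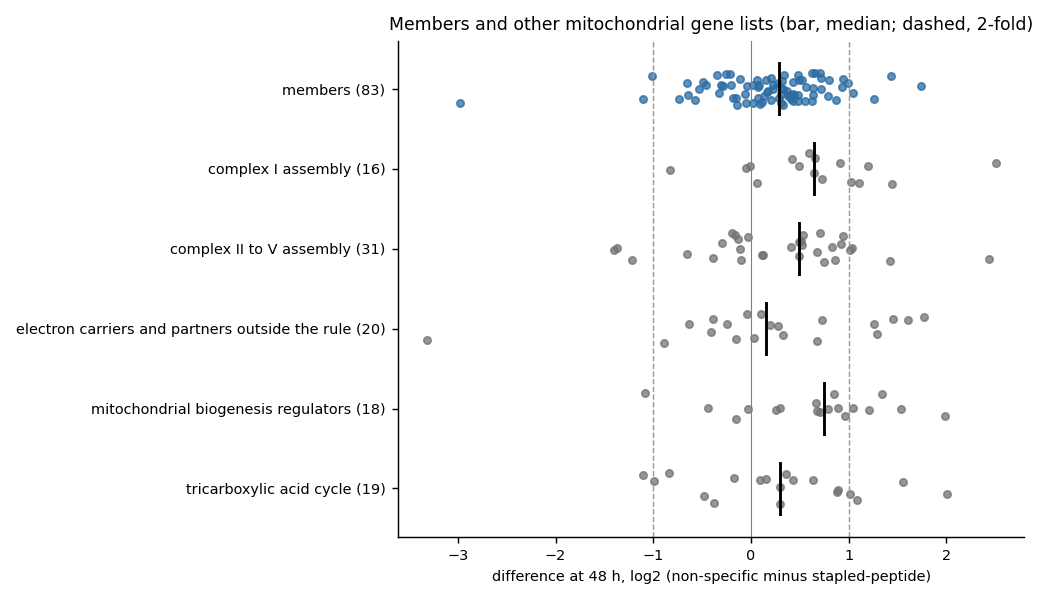
Difference in log2 signal at 48 h, non-specific stapled-peptide minus stapled-peptide, for the 83 members and for 5 lists of other mitochondrial genes. Points are genes, bars are medians and dashed lines mark 2-fold. The median was 0.29 for the members, 0.65 for complex I assembly, 0.49 for complex II to V assembly, 0.15 for carriers and partners, 0.74 for biogenesis regulators and 0.30 for the tricarboxylic acid cycle.

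At 24 h none of these lists had a gene past 2-fold, and their medians lay between -0.01 and 0.05. Of all genes 0.838% were higher and 1.04% lower there, so a count of 0 in lists this small is near that share. The widest differences there were -0.82 for DLST, a subunit of the oxoglutarate dehydrogenase complex, and -0.75 for COX18, which was dim. From 24 h to 48 h with stapled-peptide the counts past 2-fold were also 0 in these lists, beside 0.923% and 1.13% of all genes. No value was measured for the mitochondrially encoded subunits, which were not analysed here, and an array reports RNA and not the assembled complexes.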

How the data were processed

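Total RNA of MCF-10A cells was measured on 4 single-colour (Cy3) Agilent arrays. Per the file headers, the deposited spot intensities were made by the authors with Feature Extraction 10.7.1.1 (the submitters' processing notes give 9.5), background-subtracted and not normalized between arrays. The authors' combined table holds 1 intensity per probe.

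Control spots and spots marked as outliers were left out, the mean log2 signal over the spots of each probe was taken, and all 4 arrays were quantile-normalized together, as the study's methods state, with a lower limit of 1 on the signal. Accessions of 55.7% of probes matched a symbol of the current RefSeq annotation (GRCh38.p14). The array design used an older build, so no probe positions are given. A gene was read at its probe with the highest mean signal. For a probe well above background on 1 of the arrays compared, the other array was raised to its lowest well-above-background signal, which gave a bound. Where the dim signal already lay above that level, the plain difference was used. A probe dim on both gave no difference. With 1 array per condition no test was run. Genes past 2-fold were counted in 4 comparisons. All members were described, with values on every array for those past 2-fold at 48 h, the outermost 2 in each direction per complex, the core, complex II, F1 and c-ring genes, the restricted isoforms and 7 structural subunits. The values of 1 member of complex I are not reported here, and it is included in the counts.

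The members, lists and markers were chosen with earlier results of these data known. The alternatives were 75th percentile scaling, no normalization, quantile normalization over the 2 arrays compared only, normexp with an offset of 50 on median pixel signals (limma 3.58.1, R 4.3.3), no bound, only probes above background on both arrays, outlier-marked spots kept, the mean over a gene's probes, the combined table, saturated probes left out and a 1.5-fold threshold. The steps were tested on simulated data. Python 3.11.15, numpy 2.4.6, pandas 2.3.3 and matplotlib 3.10.9 were used.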

Additional observations from a re-analysis of the deposited data

Results flagged for a closer look

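Of the members past 2-fold between the peptides at 48 h, COX5A and COX7B2 had the opposite sign at 24 h. COX5A differed by 1.04 at 48 h and by -0.04 at 24 h. The latter is about the median size of a member's difference at 24 h, so COX5A was close to level there. COX7B2 differed by -1.02 at 48 h and by 0.31 at 24 h, on signals near background. The difference between the times was not tested, as each value compares 1 array with 1 array.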

How the results depend on the processing

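The counts of members past 2-fold were 4 higher and 3 lower between the peptides at 48 h. They became 3 and 3 with 75th percentile scaling, 6 and 1 with no normalization, 3 and 1 with normexp, and 18 and 6 at 1.5-fold. Among all genes, 3629 higher and 3391 lower of 17112 became 3397 and 3869 of 16983 with percentile scaling. The all-gene counts were 4660 and 2788 of 17136 with no normalization, 2414 and 2281 of 17104 with normexp, and 5451 and 5225 of 17112 at 1.5-fold. Over time with non-specific stapled-peptide, 4 and 1 became 2 and 2 with percentile scaling and 18 and 8 at 1.5-fold. The all-gene counts there were 3243 and 4318 of 17078 with percentile scaling and 5471 and 5381 of 17297 at 1.5-fold. Between the peptides at 24 h the counts stayed at 0 and 0 under every alternative, 1.5-fold and normalization of those 2 arrays alone included. Of 16228 genes, 488 were higher and 503 lower by 1.5-fold there. Over time with stapled-peptide, 1 member was higher at 1.5-fold, COX7B2, beside 478 of 16138 genes. The median difference at 48 h moved to 0.065 for all members with percentile scaling and to 0.39 with no normalization. With the same settings it was 0.11 and 0.44 for complex I, 0.16 and 0.49 for complex II and 0.085 and 0.42 for complex III. With percentile scaling it was -0.0092 for complex IV and -0.14 for complex V, both of the other sign, and with no bound it was 0.36 for complex IV. The cause of these shifts was not tested. ATP5MJ, NDUFV3 and COX6B2 were past 2-fold in the same direction under the 10 alternatives other than the 1.5-fold threshold. Their ranges were 1.54 to 1.87, 1.06 to 1.39 and -3.10 to -1.11, the last end being the mean of its 2 probes. Not all of these alternatives could change the values. No member spot was saturated, these genes were well above background on all 4 arrays, and ATP5MJ and NDUFV3 had 1 probe each. COX5A dropped to 0.75 with percentile scaling and just under 2-fold with the mean of its probes, NDUFB5 was -0.90 with no normalization and -0.99 with normexp, and COX8C and COX7B2, which rest on signals near background, moved to 0.56 and -0.29 with normexp. With percentile scaling 13 members changed sign, none above 0.32 in size, and with no normalization COX5B, ATP5MC2 and ATP5F1D did, none above 0.15. Over all genes, those higher by 2-fold at 48 h numbered 3629 and became 2414 with normexp, and over time with non-specific stapled-peptide 3678 higher and 3469 lower became 2404 and 2253. At 24 h, 136 higher and 168 lower became 9 and 21 with normexp and 51 and 79 with only probes above background on both arrays, and the 136 became 255 with no bound. Over time with stapled-peptide, 149 and 183 became 22 and 22, 53 and 86, and 260 and 288 under these settings, and 81 and 442 with no normalization. No paired analysis was possible because each peptide and time had 1 array. Precision is limited by there being 1 array per condition.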

Other observations

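Loci outside the membership that share a prefix with members were measured by 1 pseudogene probe and 2 probes of hyphenated loci. UQCRBP1, a pseudogene of UQCRB, gave log2 signals of 11.46, 11.20, 11.44 and 11.73 in the order of arrays used above, and its difference at 48 h of 0.29 lay between those of the 2 UQCRB probes, 0.15 and 0.43. Whether the probes of the gene and its copy pick up each other's RNA was not tested. NDUFB2-AS1, an antisense transcript, gave 6.19, 5.76, 6.20 and 6.78, and NDUFA6-DT, a divergent transcript next to NDUFA6, gave 7.60, 7.43, 7.65 and 7.89. Each was highest on the non-specific stapled-peptide 48 h array, as were NDUFB2, NDUFA6 and 45.5% of 14042 genes. The difference of NDUFB2 at 48 h changed sign under percentile scaling.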
